A study of Caenorhabditis elegans with 43 samples.

Results

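The mRNA levels of 10 genes that C. elegans expresses in its growing and maturing oocytes were followed across the mutants of the study: oma-1, oma-2, puf-5, rme-2, egg-1, egg-2, cbd-1, perm-2, cpg-1 and cpg-2. They were chosen by name, and all 10 were among the 13837 genes of the filtered expression table. An oocyte of the worm stores mRNAs whose translation is held back by RNA-binding proteins, takes up yolk that the intestine makes, and carries on its surface the proteins that receive the sperm and begin the eggshell. After fertilization the eggshell forms in layers from outside to inside: a vitelline layer, a chitin layer and a layer of chondroitin proteoglycans. Because the genes are used in the oocyte-bearing germline of the adult hermaphrodite, their mRNA in RNA of whole worms depends both on how many oocytes the worms hold and on how much RNA each oocyte holds, and in these bulk samples fewer cells and less RNA per cell cannot be told apart.

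The mRNA of whole prefertile young adult worms was sequenced in 43 libraries of 8 genotypes. All worms were kept at one temperature on the same bacteria and none was treated, and each RNA sample came from a plate of synchronized worms. The genotypes were wild-type N2, nuo-6(qm200), which impairs complex I of the mitochondrial respiratory chain, hif-1(ia4), a loss of the hypoxia-inducible factor, atfs-1(gk3094), a deletion in the transcription factor of the mitochondrial unfolded protein response, atfs-1(et15) and atfs-1(et17), which carry activating point mutations in the mitochondrial targeting sequence of ATFS-1, and the double mutants nuo-6;hif-1 and nuo-6;atfs-1. Sequencing batch 1 held 3 wild-type, 3 hif-1, 2 nuo-6;hif-1, 5 atfs-1(et15), 6 atfs-1(et17) and 3 atfs-1(gk3094) libraries. Batch 2 held 6 wild-type and 6 nuo-6 libraries, and batch 3 held 3 wild-type, 3 atfs-1(gk3094) and 3 nuo-6;atfs-1 libraries. Each mutant was therefore compared with the wild-type worms of its own batch. The replicates are described as biological, with RNA isolated from each, and as independent samples. Collection on separate days is stated for the study's quantitative PCR and not for the sequenced worms. The p-values rest on the spread between these libraries within groups, estimated over all 43 together.

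The libraries held 21466920 to 48493377 counted reads each, with a median of 35067190. The labels of the 6 atfs-1 deletion libraries do not give the allele, and those of the 3 nuo-6;atfs-1 libraries give a code in place of the genotype; both were read with the strains the study describes. The level of atfs-1 was 24.5 to 30.3 normalized CPM (reads of the gene relative to all counted reads of the library, scaled by the authors) in these 9 libraries and at least 42.7 in every other library, and hif-1 was at 18.5 to 43.4 normalized CPM in both groups with the hif-1 mutation and at least 140.0 elsewhere. On the log2 scale, the batch 1 deletion libraries lay close to those of batch 3 one by one. Replicates 1, 2 and 3 of batch 1 differed from replicates b, bl and r of batch 3 with an SD of the log2 difference over genes of 0.150, 0.143 and 0.139, against 0.190 or more between any libraries of one genotype and batch. By chi-square of reads per degree of freedom the pairs stood at 59.5, 8.87 and 8.94, against 21.0 or more, and the nearest library of b, bl and r was 1, 2 and 3. In the other direction, replicates 2 and 3 were nearest to bl and r, but replicate 1 was nearest to replicate 2 of batch 1 (34.1). Whether the paired libraries share RNA, or the batch 1 label of the deletion libraries is wrong, cannot be told from these values. They were kept as labelled, and the deletion results of the 2 batches are not independent of each other if RNA was shared. Without the 3 batch 1 libraries, the count of the 10 genes called was the same in 16 of the 17 other comparisons, and went from 5 to 4 between atfs-1(et15) and atfs-1(et17) worms. The batch 1 deletion libraries differed from wild-type worms of batch 1 in 31.8% of all genes and from those of batch 3 in 0.224%, so their results are given against both. None of 20 general germline genes was at 0 in all libraries of a group.

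The 10 genes lie on 4 chromosomes of the WBcel235 genome, with oma-1, rme-2, cbd-1 and perm-2 on chromosome IV, egg-1, egg-2, cpg-1 and cpg-2 on chromosome III, puf-5 on II and oma-2 on V. Egg-2 (III, 7058527 to 7060583, minus strand) and cpg-2 (III, 7102092 to 7103990, minus strand) are separated by 41.5 kb, and every other pair on one chromosome by more than 1 Mb (1237 to 10244 kb). Perm-2 (IV, 1126790 to 1128865, plus strand) has the least exon sequence, 736 bp, and its last exon shares 25 bp with C44B12.6 on the opposite strand. The last exon of egg-1 (III, 5728180 to 5730159, plus strand) shares 42 bp with B0244.9 in the same way. Both neighbours were low beside their partners, with C44B12.6 at 3.25 normalized CPM or less and B0244.9 at 11.8 or less in every library. Reads that could stem from either copy of oma-1 and oma-2, of egg-1 and egg-2, or of cpg-1 and cpg-2 are uncertain, since reads with a single place in the genome were counted.

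Levels were compared between genes per kb of exon, as the mean of the wild-type means of the 3 batches. The proteoglycan genes cpg-2 (611 normalized CPM per kb) and cpg-1 (520) led, and the vitelline layer genes cbd-1 (396) and perm-2 (372) followed. The RNA-binding regulator puf-5 (204) and the yolk receptor rme-2 (197) stood next to each other, then oma-2 (150) and egg-1 (144), oma-1 (94.0) and egg-2 (61.4). Between neighbours in this order the ranges over wild-type libraries overlapped. Within wild-type libraries of one batch, each gene varied by 1.35 to 3.73 times from the lowest to the highest library. The genes did so in unison. Replicate 2 of batch 1 was the lowest and replicate 3 the highest wild-type library of that batch for all 10 genes, and replicate r was the lowest of batch 3 for all 10. In batch 2, replicate 4 was the highest for 9 genes and replicate 7 the lowest for 7.

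**Figure D1:**
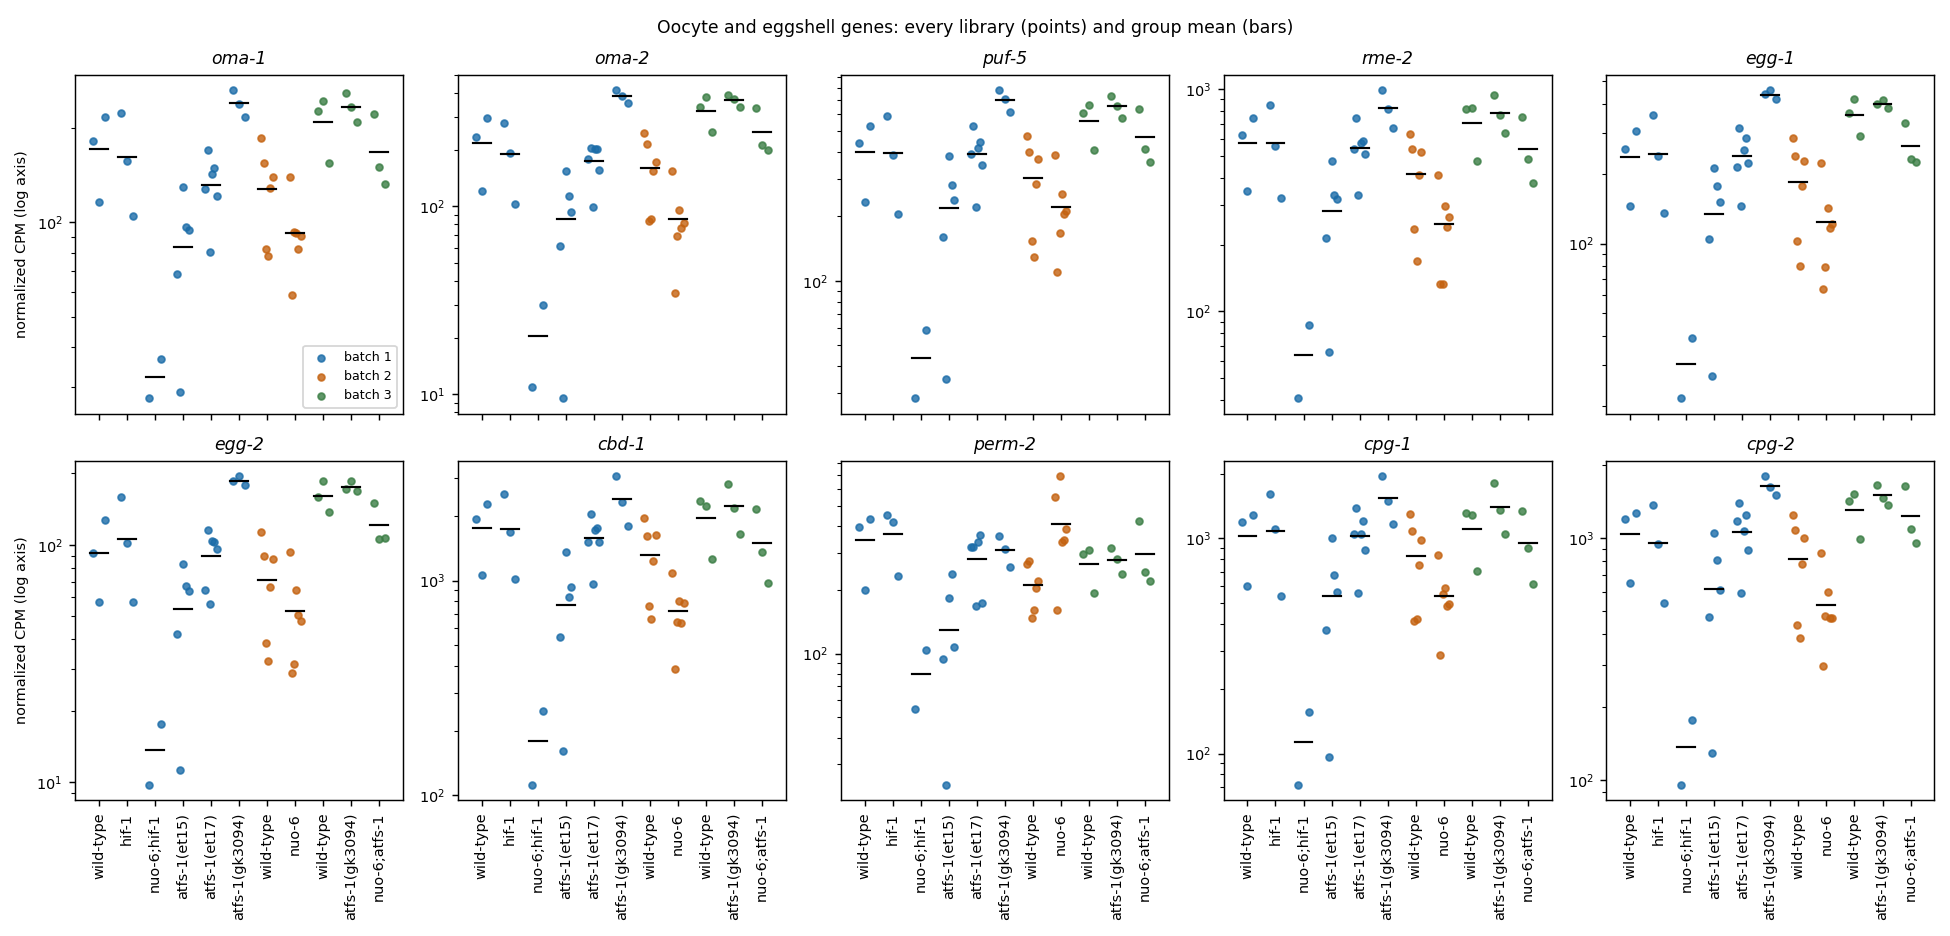
Normalized CPM (log axis) of each of the 10 genes in every library, as points colored by sequencing batch, with the group mean as a bar. The nuo-6;hif-1 libraries lie below all wild-type libraries of their batch for each gene, whereas perm-2 is the gene whose nuo-6 mean lies above the wild-type mean.

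The lowest mean levels of these genes were found in nuo-6;hif-1 worms. All 10 genes were decreased compared to wild-type worms of batch 1, and both double mutant libraries lay below all 3 wild-type libraries for every gene. By group means, the genes stood at 9.45% (oma-2) to 23.2% (perm-2) of wild-type, so that wild-type worms had 4.32 to 10.6 times as much. Of all genes tested, 26.2% were called lower in this comparison, and 29.1% had both double mutant libraries below all wild-type libraries of the batch.

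Among the RNA-binding regulators, oma-2, which with oma-1 is required for oocyte maturation and holds back the translation of stored mRNAs, gave 11 and 29.9 normalized CPM in worms of the nuo-6;hif-1 double mutant, against 233, 121 and 294 in wild-type worms. The groups were far apart. Its log2 fold change was −3.44 ± 0.66 (SE; adjusted p = 8.44e-05, limma). Oma-1 gave 27.5 and 36.8 against 182, 116 and 217 normalized CPM, which gave −2.37 ± 0.41 on the log2 scale (adjusted p = 2.73e-05, limma). The partners thus fell unequally, since the ratio of oma-2 to oma-1 was 0.398 and 0.811 in the double mutant and 1.04 to 1.35 in wild-type libraries. Puf-5, a Pumilio family RNA-binding protein of oogenesis, gave 28.2 and 59.1 against 439, 235 and 533 normalized CPM (log2 fold change −3.20 ± 0.62, adjusted p = 9.08e-05, limma).

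Rme-2, the receptor through which oocytes take up yolk, gave 40.6 and 86.6 normalized CPM in nuo-6;hif-1 worms and 624, 348 and 738 in wild-type worms. The groups did not overlap, and the log2 fold change was −3.18 ± 0.57 (adjusted p = 4.02e-05, limma). Egg-1 and egg-2, paralogous surface proteins of the oocyte that are required for fertilization, were also below wild-type in both libraries. Egg-1 gave 21.5 and 39.1 against 255, 145 and 306 normalized CPM (log2 fold change −2.93 ± 0.56, adjusted p = 8.26e-05, limma), and egg-2 gave 9.7 and 17.5 against 92.1, 57.5 and 127 (−2.70 ± 0.55, adjusted p = 1.71e-04, limma).

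Of the eggshell genes, cbd-1, a chitin-binding protein of the vitelline layer, gave 112 and 247 normalized CPM in nuo-6;hif-1 worms against 1939, 1059.6 and 2275 in wild-type worms. The log2 fold change was −3.33 ± 0.56 (adjusted p = 1.87e-05, limma). Perm-2, a partner of CBD-1 in that layer, had the smallest change of the 10, with 54.8 and 105 against 396, 200.1 and 436 normalized CPM (−2.10 ± 0.57, adjusted p = 0.00248, limma). Of the proteoglycan genes of the inner eggshell, cpg-1 gave 71.6 and 156 against 1189.6, 603 and 1279 normalized CPM (−3.20 ± 0.61, adjusted p = 8.10e-05, limma), and cpg-2 gave 96.0 and 178 against 1189, 653 and 1264 (−2.92 ± 0.55, adjusted p = 6.49e-05, limma). Replicate 2 of nuo-6;hif-1 was the lower library for all 10 genes. Without it 9 of the 10 were called, and perm-2 had an adjusted p of 0.0635 (limma, 1 double mutant library, assumed to vary like the other groups).

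**Figure D2:**
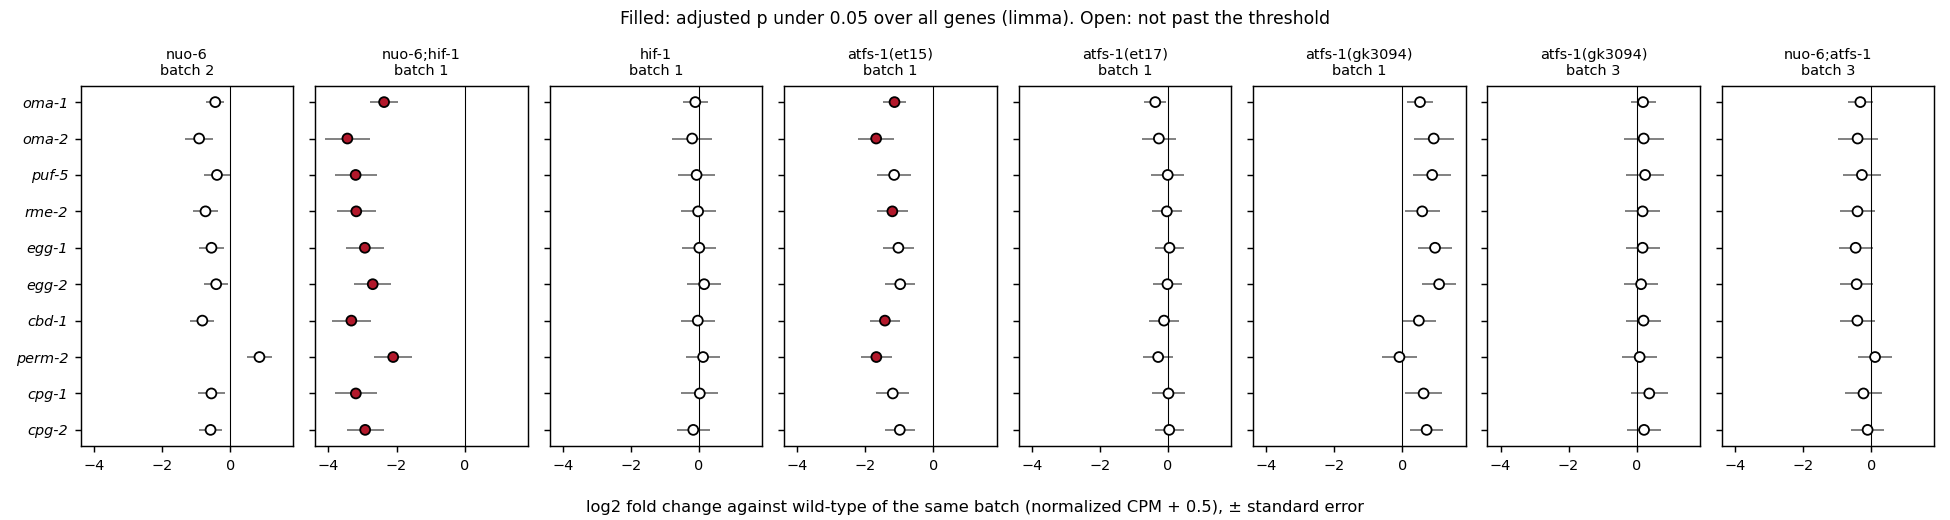
Log2 fold change (x axis, with its standard error) of the 10 genes against wild-type worms of the same batch for each mutant group, filled where the adjusted p was under 0.05 over all genes. All 10 genes are filled for nuo-6;hif-1 and 5 for atfs-1(et15), and none is filled for the other 6 comparisons.

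Loss of hif-1 alone did not come with a change that passed the test. None of the 10 genes was called in hif-1 worms compared to wild-type worms (0.52% of all genes were called), and the log2 fold changes lay between −0.20 (oma-2, SE 0.59) and 0.15 (egg-2). The count was also 0 at an unadjusted p under 0.05, by edgeR and by DESeq2. For cbd-1 the hif-1 libraries had 2531, 1687 and 1018 normalized CPM, which spans the wild-type range. Compared to these hif-1 worms, nuo-6;hif-1 worms had lower levels of all 10 genes (23.9% of all genes were called lower). The log2 fold changes ran from −2.22 (perm-2, SE 0.57, adjusted p = 0.00179, limma) to −3.29 (cbd-1, SE 0.56, adjusted p = 3.46e-05, limma), and none of these calls was lost when any library was left out.

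In worms with the nuo-6 mutation alone, none of the 10 genes passed the test against wild-type worms of batch 2, where 40.3% of all genes were called. By limma 3 of them had an unadjusted p under 0.05, edgeR called 2 and DESeq2 called 3. All but perm-2 had negative log2 fold changes, from −0.39 (puf-5, SE 0.39) to −0.91 (oma-2, SE 0.42, adjusted p = 0.0779, limma). Cbd-1 ranged from 387 to 1079 normalized CPM (median 712) in the 6 nuo-6 libraries and from 663 to 1951 (median 1426) in the 6 wild-type libraries, so that the groups overlapped (−0.82 ± 0.36, adjusted p = 0.0648, limma). Rme-2 ranged from 133 to 411 (median 253) against 168 to 629 (median 465), again with overlap (−0.72 ± 0.36, adjusted p = 0.107, limma). Perm-2 ranged from 161 to 691 (median 367) against 148 to 275 (median 212), and 5 of the 6 nuo-6 libraries lay above every wild-type library (0.86 ± 0.36, adjusted p = 0.0529, limma). The call for perm-2 depended on the tool: edgeR gave an adjusted p of 0.0206 and DESeq2 0.00926, and the range over all alternatives ran from 0.00926 to 0.238. Replicate 2 of nuo-6 was the lowest for 9 of the 10 genes, and replicate 3 had the highest perm-2 level of the group together with an rme-2 level of 133 normalized CPM. Without both, or without replicate 2 of nuo-6 or replicate 5 of wild-type alone, perm-2 was the gene called. Without replicate 6 or 7 of wild-type or replicate 1 of nuo-6, 2, 3 and 2 of the other genes were called lower.

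The same nuo-6 mutation was thus accompanied by different levels of these genes with and without hif-1, and that difference was tested directly. Against nuo-6 worms, each taken through the wild-type worms of its batch, nuo-6;hif-1 worms had lower levels of all 10 genes, with log2 differences from −1.93 (oma-1, SE 0.49, adjusted p = 0.00317, limma) to −2.96 (perm-2, SE 0.67, adjusted p = 0.00122, limma), where 13.5% of all genes were called lower. The effect of nuo-6 in hif-1 worms minus its effect in wild-type worms, a comparison added after the data were seen, was negative for all 10 genes and called for all 10 (13.6% of all genes were called lower). It shares its libraries with the comparison before it. Both counts depended on 1 library. Without replicate 2 of nuo-6;hif-1, 2 genes (oma-1 and perm-2) remained called against nuo-6 worms, and 1 (perm-2) in the difference of effects, while all 10 values stayed negative. The nuo-6 and nuo-6;hif-1 worms were sequenced in different batches, so a batch that acted on mutants and not on wild-type worms cannot be told apart from the genotype.

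Between the 2 activating atfs-1 alleles the levels differed for some of the genes. In atfs-1(et15) worms all 10 genes had log2 fold changes between −0.98 and −1.68 compared to wild-type worms, and 5 passed the test (16.4% of all genes were called lower): perm-2 (−1.68 ± 0.45, adjusted p = 0.00489, limma), oma-2 (−1.68 ± 0.53, adjusted p = 0.0137, limma), cbd-1 (−1.43 ± 0.45, adjusted p = 0.0145, limma), oma-1 (−1.14 ± 0.33, adjusted p = 0.00778, limma) and rme-2 (−1.21 ± 0.46, adjusted p = 0.0398, limma). The other 5, puf-5, egg-1, egg-2, cpg-1 and cpg-2, had adjusted p-values between 0.0555 and 0.0836 (limma). Perm-2 gave 94.4, 23.9, 184, 238 and 108 normalized CPM in the 5 atfs-1(et15) libraries, against 396, 200.1 and 436 in wild-type worms, and cbd-1 gave 544, 161, 1355, 836 and 936 against 1939, 1059.6 and 2275. Library 3 of atfs-1(et15) was the lowest for all 10 genes, at 4.40% (oma-2) to 16.8% (oma-1) of the wild-type mean, and library 4, the highest for 9 genes, was at 53.5% to 101%. For none of the 10 genes did all 5 libraries lie below all wild-type libraries, as they did for 11.6% of all genes.

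The count of called genes in atfs-1(et15) moved with the fit. A fit of these 8 libraries alone called none of the 10 (adjusted p 0.0876 to 0.247), and edgeR called 4 and DESeq2 5. Without atfs-1(et15) library 3 the count was 2, without wild-type replicates 1, 2 and 3 of the batch it was 2, 10 and 1, and without atfs-1(et15) libraries 4 and 5 it was 10 and 9. In atfs-1(et17) worms none of the 10 genes passed the test, with 4.09% of all genes called, no unadjusted p under 0.05 among the 10, and no call by edgeR or DESeq2. Their log2 fold changes lay between −0.37 (oma-1, SE 0.32) and 0.05 (egg-1, SE 0.43). Cbd-1 ranged from 959 to 2045 normalized CPM (median 1618) in the 6 atfs-1(et17) libraries and overlapped the wild-type libraries. In a direct comparison, atfs-1(et15) worms had lower levels than atfs-1(et17) worms for 5 genes, cbd-1, cpg-1, oma-2, perm-2 and rme-2, with log2 differences from −1.18 (rme-2, SE 0.38, adjusted p = 0.0399, limma) to −1.42 (oma-2, SE 0.44, adjusted p = 0.0318, limma). Of all genes, 5.13% were called lower there. In a fit of the 11 libraries alone 0 of the 10 were called, edgeR called 1 and DESeq2 2. The count was 0 without atfs-1(et15) library 3, 1 without library 2, and 10 and 9 without libraries 4 and 5. Without atfs-1(et17) libraries 2, 4 or 5 it was 2, without library 6 it was 3, and without library 3 it was 10.

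Deletion of atfs-1 gave no call among the 10 genes in either batch, by limma, edgeR or DESeq2. In batch 3, all 10 log2 fold changes were positive and small, from 0.09 (perm-2) to 0.37 (cpg-1) with standard errors of 0.37 to 0.59, and 0.188% of all genes were called. In batch 1, 9 of the 10 were positive, up to 1.08 ± 0.49 for egg-2 (adjusted p = 0.0877, limma), perm-2 was at −0.08, and 31.8% of all genes were called. Egg-2 gave 185, 195 and 180 normalized CPM in the batch 1 deletion libraries against 92.1, 57.5 and 127 in wild-type worms, without overlap, and 5 of the 10 genes had all 3 deletion libraries above the wild-type range (32.6% of all genes did). Among the 10 genes, 1 had an unadjusted p under 0.05, and a fit of these 6 libraries alone called 5 higher. The 31.8% above belongs to the fit of all libraries and is no measure for these 5. They are therefore not read as a result about the 10 genes. In the same comparison 7 of 20 germline genes were higher, 10 of 14 sperm genes were lower, and 5 of 18 molting genes were higher and 1 lower (18% of all genes were called higher and 13.8% lower), and their part in the levels was not tested. Against the wild-type worms of batch 3, in a comparison added after the data were seen, the batch 1 deletion libraries had log2 differences of 0.22 to 0.50 and none of the 10 was called, with 0.224% of all genes called. The deletion effect of batch 3 minus that of batch 1 was called for none of the 10 (1.19% of all genes were called), with standard errors of 0.52 to 0.83.

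The nuo-6;atfs-1 worms had no gene of the 10 called against wild-type worms of batch 3 (17.2% of all genes were called) or against atfs-1(gk3094) worms of that batch (14.3%). Against wild-type worms the count was also 0 at an unadjusted p under 0.05, and in both comparisons it was 0 by edgeR and DESeq2. Against wild-type worms the log2 fold changes lay between −0.46 (egg-1, SE 0.50) and −0.10 (cpg-2, SE 0.49) for 9 genes and at 0.12 (SE 0.51) for perm-2. Cbd-1 gave 2163, 1364 and 973 normalized CPM in the double mutant libraries b, bl and r, against 2358, 2231 and 1266 in wild-type libraries b, bl and r. The groups overlapped for all 10 genes. Of all genes, 21.8% had all 3 double mutant libraries below the wild-type range and 24.6% had them above it. The difference between nuo-6;atfs-1 and nuo-6 worms, each taken through its wild-type worms, was not called for any gene (9.56% of all genes were called), with values from −0.75 (perm-2, SE 0.62) to 0.51 (oma-2, SE 0.72). The effect of nuo-6 in atfs-1(gk3094) worms minus its effect in wild-type worms, also added after the data were seen, was called for none of the 10 either (9.34% of all genes were called), with −0.83 ± 0.62 for perm-2. Both counts were also 0 when any library was left out. In a fit of the 6 batch 3 double mutant and deletion libraries alone, 5 of the 10 were called lower in the double mutant. The 14.3% above belongs to the fit of all libraries and is no measure for this count. Without a share of all genes beside it, the count is not read as a result about these genes.

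By the mean over libraries, the mutants thus ordered from nuo-6;hif-1 (9.45% to 23.2% of the wild-type mean of the batch over the 10 genes) through atfs-1(et15) (37.7% to 59.2%) to nuo-6 (53.6% to 74.0% for 9 genes and 195% for perm-2), nuo-6;atfs-1 (73.2% to 111%), atfs-1(et17) (76.7% to 102%), hif-1 (88.1% to 115%) and atfs-1(gk3094) (105% to 128% in batch 3 and 90.2% to 202% in batch 1). Of neighbours in this order, nuo-6 and nuo-6;atfs-1 were compared directly, without a call, and the others were not. Between wild-type worms of different batches, 2 of the 10 genes differed, which is not more often than genes in general. Egg-1 and egg-2 were higher in batch 3 than in batch 2, by 1.08 ± 0.43 (adjusted p = 0.0411, limma) and 1.3 ± 0.43 (adjusted p = 0.0130, limma) on the log2 scale, when 24.7% of all genes were called higher. The count was 1 by edgeR, 4 by DESeq2, 0 without replicate bl of batch 3, 5 without replicate 4 of batch 2, and 1 without replicate 6, 7 or 8 of batch 2 or b of batch 3. None of the 10 was called between the wild-type worms of batches 1 and 2 (0.289% of all genes) or of batches 1 and 3 (24.6%).

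**Figure D3:**
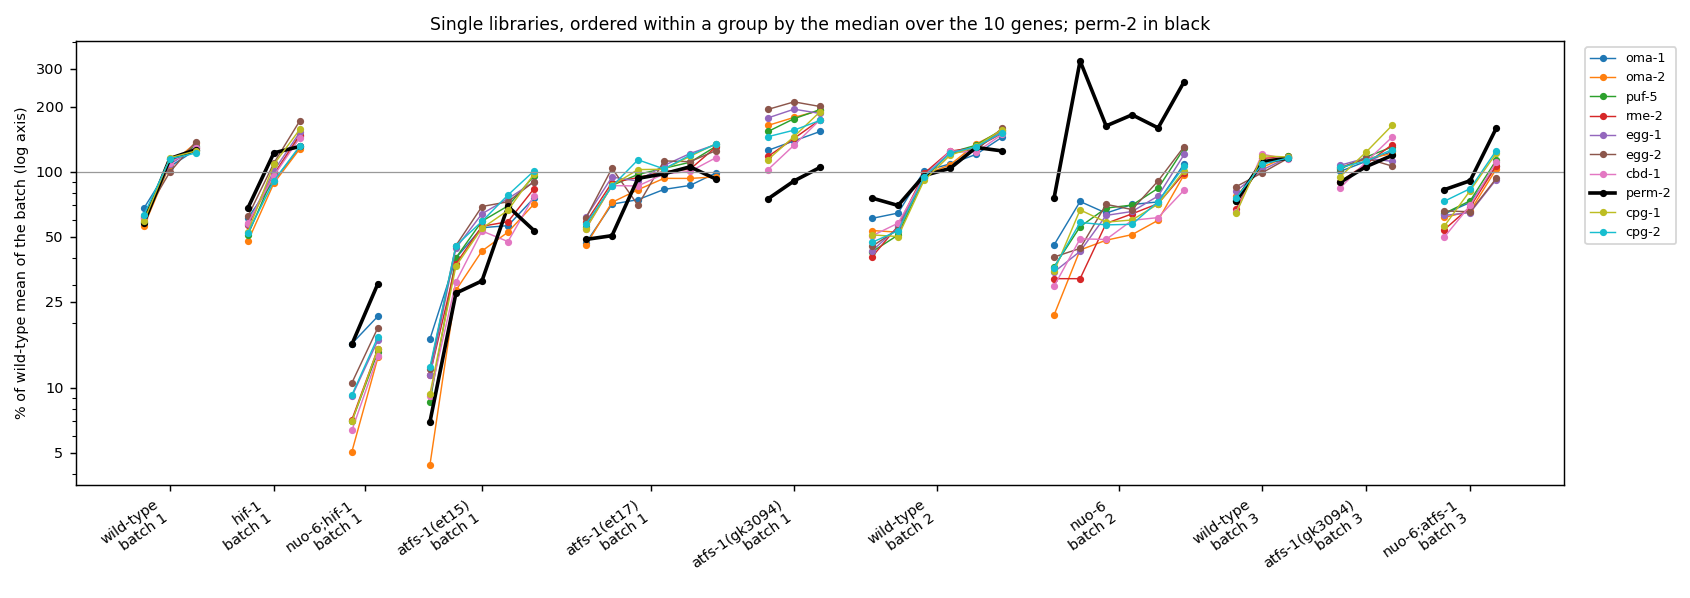
Each of the 10 genes as a percent of the wild-type mean of its batch (log axis) in single libraries, which are ordered within a group by their median over the genes. The lines run together within most groups, from 4.40% to 16.8% in the lowest atfs-1(et15) library to 125% to 159% in the highest wild-type library of batch 2, and perm-2, in black, leaves the bundle in nuo-6 worms, where it reaches 326%.

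Within most groups the genes moved together from library to library. The lowest library was the same one for all 10 genes in 8 of the 11 groups and for 9 or 7 of the 10 in the other 3. Across the 43 libraries, on the log2 scale and relative to wild-type worms of the batch, 9 of the genes had a Pearson correlation of 0.969 (egg-2) to 0.996 (puf-5) with the mean of the other 9 genes, and perm-2 had 0.727. These points share libraries and the wild-type means they were centered on, and are given as a description. The summed level of the 6 vitellogenin genes, the yolk proteins made in the intestine, was lowest in the library with the lowest median of the 10 genes in 11 of 11 groups, and the summed level of 18 molting genes was highest there in 6 of 11. In wild-type worms of batch 2, replicate 7 stood at a median of 48.9% of the wild-type mean with a molting sum of 5686 normalized CPM, and replicate 4 at 153% with 741. Replicate 3 of nuo-6 had the highest vitellogenin sum of its group (92192 normalized CPM) at a median of 52.3%, below the group's middle value of 62.7%. What part stage, yolk or another difference between plates had in this was not tested.

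Perm-2 was the exception among the 10 in worms that carry nuo-6. Its ratio to cbd-1, chosen for description after the values had been seen, was 0.415 to 1.08 (median 0.505) in the 6 nuo-6 libraries and 0.134 to 0.242 (median 0.167) in wild-type worms of batch 2. In nuo-6;hif-1 worms, where both genes were decreased, it was 0.424 and 0.490 against 0.189 to 0.204 in wild-type worms of batch 1. In nuo-6;atfs-1 worms it was 0.178 to 0.226 against 0.126 to 0.153 in wild-type worms of batch 3. The ratio thus lay above the whole wild-type range in all 3 groups with the nuo-6 mutation, and in none of the other 5 groups. Set against the mean of the other 9 genes instead, perm-2 again lay above all wild-type libraries in these 3 groups, by 1.46 (nuo-6), 0.93 (nuo-6;hif-1) and 0.45 (nuo-6;atfs-1) on the log2 scale. No other gene of the 10 did so in all 3. Cbd-1, set against its other 9 genes, lay below all wild-type libraries in nuo-6 (−0.41) and nuo-6;hif-1 worms (−0.43). In nuo-6;atfs-1 worms it did not (−0.13). In the batch 1 deletion libraries perm-2 lay below all wild-type libraries of batch 1 on both measures, at −0.84 against the other genes. Against wild-type worms of batch 3 that value was −0.07, and the ratio to cbd-1 of 0.118 to 0.143 overlapped the wild-type range of 0.126 to 0.153.

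Perm-4, whose product acts with PERM-2 and CBD-1 in the vitelline layer, lies 1682 bp from perm-2 on the opposite strand. It also had a ratio to cbd-1 above the wild-type range in the groups with the nuo-6 mutation. Such a ratio also rises where cbd-1 falls, and perm-4 was not set against the other genes. Its ratio to cbd-1 was 0.743 to 1.49 in nuo-6 worms against 0.223 to 0.364, 0.668 and 0.762 in nuo-6;hif-1 worms against 0.319 to 0.339, and 0.364 to 0.406 in nuo-6;atfs-1 worms against 0.203 to 0.219. Perm-4 itself was increased in nuo-6 worms (log2 fold change 0.85 ± 0.31, adjusted p = 0.0265, limma) and decreased in nuo-6;hif-1 worms (−2.21 ± 0.49, adjusted p = 4.16e-04, limma). C44B12.6, which overlaps the end of perm-2, was also higher in nuo-6 worms (1.47 ± 0.12, adjusted p = 1.25e-12, limma), with a highest level of 3.25 normalized CPM in those libraries. C44B12.6 was called higher as well in atfs-1(et15) (1.82) and nuo-6;hif-1 worms (1.65), where perm-2 was called lower. The same held in atfs-1(et17) (1.47) and nuo-6;atfs-1 worms (0.72), where perm-2 was not called. Its part in the perm-2 reads was not tested.

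**Figure D4:**
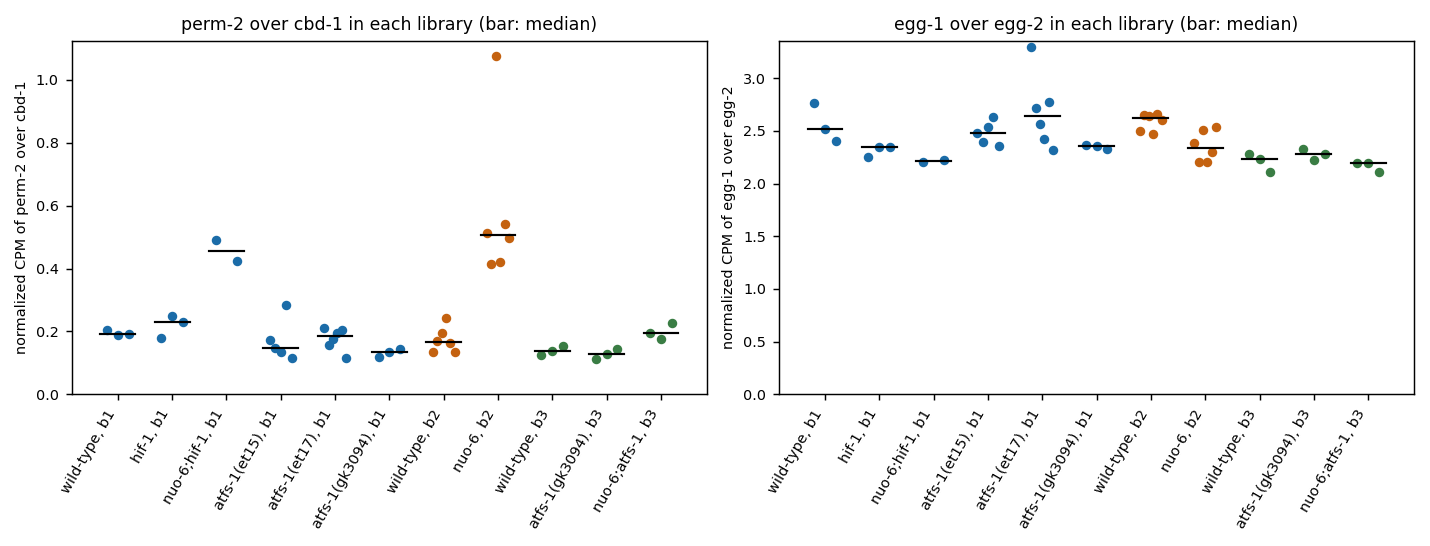
Ratio of normalized CPM in each library, for perm-2 over cbd-1 (left) and egg-1 over egg-2 (right), with points colored by batch and bars at the group median; b1 to b3 are the batches. The perm-2 ratio is 0.415 to 1.08 in nuo-6 worms and 0.134 to 0.242 in wild-type worms of that batch, whereas the egg-1 ratio stays between 2.11 and 3.30 in all libraries.

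Ranges over all libraries were narrower for egg-1 over egg-2 and cpg-1 over cpg-2 than for oma-2 over oma-1. Egg-1 stood at 2.11 to 3.30 times egg-2 in all libraries, and cpg-1 at 0.647 to 1.18 times cpg-2. Egg-1 over egg-2 lay below all wild-type libraries of batch 1 (2.40 to 2.77) in hif-1 (2.25 to 2.35) and nuo-6;hif-1 worms (2.21 and 2.23). The batch 1 deletion libraries (2.33 to 2.37) also did, but lay above wild-type worms of batch 3 (2.11 to 2.29). Cpg-1 over cpg-2 lay below all wild-type libraries of batch 1 (0.923 or more) in nuo-6;hif-1 worms (0.746 and 0.874). The ratio of oma-2 to oma-1 ran from 0.329 in the lowest atfs-1(et15) library to 1.64 in a batch 1 deletion library. It was 0.589 to 1.11 in nuo-6 worms, against 1.02 to 1.39 in wild-type worms of batch 2. The batch 1 deletion libraries, at 1.575 to 1.64, lay above wild-type worms of batch 1 (1.04 to 1.35) and overlapped those of batch 3 (1.49 to 1.61). Relative to the mean of the other 9 genes, oma-2 lay below all wild-type libraries of the batch in nuo-6, nuo-6;hif-1, atfs-1(et15) and hif-1 worms.

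Other genes of oogenesis were taken from lists of known genes. In nuo-6;hif-1 worms all 20 other RNA regulators of oocytes and early embryos were decreased (median log2 fold change −2.45, against 0.04 over all genes), with the largest changes for meg-1 (−3.80 ± 0.69, adjusted p = 4.83e-05, limma) and nos-2 (−3.28 ± 0.64, adjusted p = 1.09e-04, limma), a germ granule gene and a nanos homolog. Of 14 other eggshell and egg activation genes, 11 were lower and 1 higher (median −2.13), among them egg-3 (−2.82 ± 0.52, adjusted p = 5.26e-05, limma), which organizes egg activation at the cortex. Of 8 genes of meiotic maturation 7 were lower (median −1.35), led by the B-type cyclin gene cyb-3 (−2.53 ± 0.45, adjusted p = 3.94e-05, limma). Of 20 germline genes in general, 13 were lower (median −0.70), with glh-4 the furthest (−3.14 ± 0.33, adjusted p = 3.21e-09, limma). Of all genes, 26.2% were called lower and 29.8% higher. None of 8 genes of the general endocytic machinery of yolk uptake was lower and 2 were higher (median 0.23), and of 4 gonadal sheath genes 2 were higher (median 0.47).

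In atfs-1(et15) worms 12 of the 20 RNA regulators were lower (median −1.01, against −0.04 over all genes), as were 7 of the 14 eggshell genes, with 1 higher, 5 of the 8 maturation genes and 10 of the 20 germline genes, where 16.4% of all genes were called lower and 16.9% higher. In nuo-6 worms, where 18% of all genes were called lower and 22.4% higher, 10 of the 20 germline genes were lower (median −0.34), led by glh-4 (−2.06 ± 0.21, adjusted p = 4.60e-10, limma) and pgl-1 (−1.04 ± 0.13, adjusted p = 8.96e-08, limma), both of germ granules. Of the 20 RNA regulators 2 were lower (median −0.43), and of the 14 eggshell genes 4 were lower and 1 higher (median −0.39). In nuo-6;atfs-1 worms (6.03% of all genes were called lower) 4 of the 20 germline genes were lower and 0 of the RNA regulators and eggshell genes passed the test (limma; 2 of the RNA regulators had an unadjusted p under 0.05). No gene of the oocyte, eggshell, maturation or germline lists was called in hif-1 worms, in atfs-1(et17) worms or in the deletion worms of batch 3, where up to 1 gene per list had an unadjusted p under 0.05.

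Markers of other tissues and of stage moved in the groups with the lowest levels. In nuo-6;hif-1 worms 6 of 6 vitellogenin genes were lower (median −4.54), with a sum of 2005 and 8199 normalized CPM against 27022 to 76683 in wild-type worms, and 15 of 18 molting genes were higher (median 2.99), with a sum of 3325 and 3805 against 264 to 1119. In atfs-1(et15) worms 6 of 6 vitellogenin genes were lower (median −3.79; sums 1674 to 14384) and 15 of 18 molting genes higher (median 2.71; sums 1584 to 5328). In nuo-6 worms the molting list went the other way, with 7 of 18 lower and none higher (median −0.98; sums 319 to 1577 against 741 to 5686). Vitellogenin sums of nuo-6 worms ran from 8630 (replicate 2) to 92192 normalized CPM (median 59417), against 22819 to 43662 (median 31112) in wild-type worms of batch 2. Of 14 sperm genes, 7 were lower in nuo-6;hif-1 worms (sums 233 and 302 against 385 to 565) and none was called in atfs-1(et15) worms. No gene of these lists was at 0 in all libraries of a group. The part of stage in the levels of the 10 genes was not tested.

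**Figure D5:**
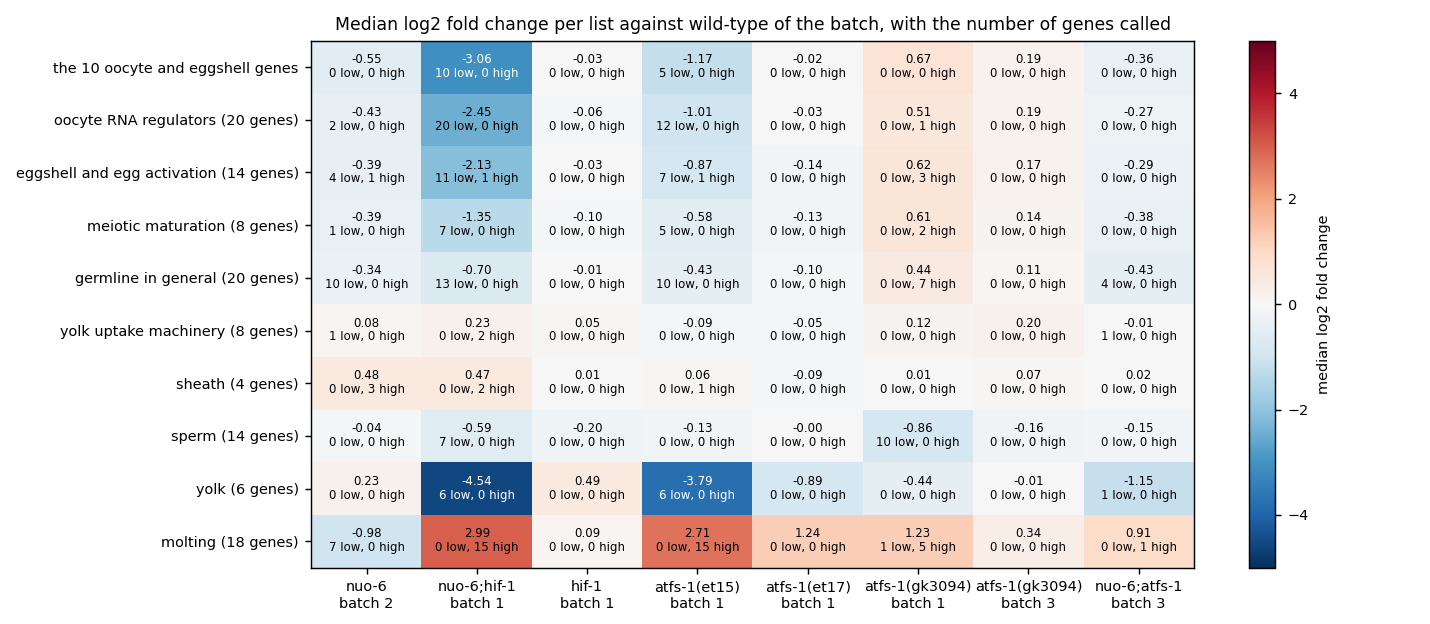
Median log2 fold change of each gene list (rows) against wild-type worms of the batch (columns), by color and number, with the count of genes called lower and higher. In nuo-6;hif-1 and atfs-1(et15) worms the oocyte and eggshell lists and the yolk list are below 0 and the molting list above it (2.99 and 2.71), and in nuo-6 worms the molting list is at −0.98.

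The genes whose pattern over the 43 libraries was most like the mean of the 10, out of 13637 others with a mean of at least 1 normalized CPM, were era-1, C27D9.1, C01G8.1, F32D1.7, pos-1, gln-6, nasp-2, C05C10.5, spn-4 and clec-87. Their Pearson correlations with that mean, on the log2 scale and relative to wild-type worms of the batch, were 0.987 to 0.995. Pos-1 and spn-4, RNA-binding proteins of the early embryo, were also on the list of RNA regulators.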

How the data were processed

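The authors aligned reads of 43 libraries with STAR 2.5.2b to WBcel235 and counted reads per gene; the strand setting is not given in the sources used here. Per the series' design text, 1 replicate each of 2 genotypes had been left out by the authors. They deposited CPM for 46739 genes, from which whole reads were recovered (100% of values within 0.01), and a normalized signal for 13837 filtered genes, which is CPM times a constant per library (edgeR 3.20.1).

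Log2 of the normalized CPM plus 0.5 was fitted with limma 3.58.1 (trend, empirical Bayes; R 4.3.3), with 1 mean per genotype and batch over all libraries, and genes with a Benjamini-Hochberg adjusted p under 0.05 over all 13837 genes were called. Fold changes on this scale understate changes of low genes. The fit was tested on simulated data. Alternatives were pseudocounts of 0.1 and 2, scaling by library size alone, all genes with any read, genes with a mean of 5 normalized CPM or more, additive batch, the compared groups alone, replicate labels as a block, edgeR 4.0.16 and DESeq2 1.42.0 on the recovered reads (edgeR called 3102 genes higher and 2655 lower in nuo-6 worms), a stricter adjusted p (0.01), a minimum change of 2-fold, and each library left out. Positions came from a later Ensembl annotation of WBcel235. Libraries were compared by the chi-square of whole reads over genes with at least 50 reads in the pair.

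The genes, the lists and the rule for naming genes (all 10; at most the 2 largest called changes per list and comparison; the 10 most similar patterns) were chosen with earlier results of these data known. C44B12.6, B0244.9 and ratios were added after values were seen. Libraries with the same label deviated together in 1 of 11 pairs of groups with at least 3 shared labels, those of the deletion and wild-type worms in batch 3 (correlations 0.446 to 0.693), so these pair.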

Additional observations from a re-analysis of the deposited data

Results flagged for a closer look

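The effect of nuo-6 differed between worms with and without hif-1 for all 10 genes by a direct test of the difference (limma, effect in hif-1 worms minus effect in wild-type worms, log2 scale). The values were −3.08 for perm-2, −2.74 for puf-5, −2.67 for cpg-1, −2.48 for cbd-1, −2.44 for egg-2, −2.43 for rme-2, −2.39 for egg-1, −2.33 for oma-2, −2.18 for cpg-2 and −1.82 for oma-1, with adjusted p-values from 8.10e-04 (perm-2) to 0.0221 (oma-2). Each was negative without any 1 library, but 1 of the 10 was called without replicate 2 of nuo-6;hif-1. Dixon's test, run gene by gene, flagged no library in the 40 sets of 5 or 6 libraries looked at. Chance flags about 1 in 20 such sets. The test has little power in sets this small and was not run on smaller groups such as nuo-6;hif-1, so it cannot exclude deviating libraries. By chi-square of reads per degree of freedom, replicate 2 of nuo-6 was nearer to wild-type replicate 9 of batch 2 (165) than to any nuo-6 library (210). The other nuo-6 libraries were nearest to their own group. Both nuo-6;hif-1 libraries were nearer to an atfs-1(et15) library (192 for replicate 2 and 145 for replicate 3) than to each other (243). All wild-type libraries of batch 3 were nearest to deletion libraries, and several other batch 1 libraries were nearest to another genotype.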

How the results depend on the processing

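For single genes, no log2 fold change of a called gene changed sign under any alternative. The 10 calls in nuo-6;hif-1 worms against hif-1 worms held when any library was left out, and against wild-type worms 9 to 10 were called. Against nuo-6 worms 2 to 10 were called when 1 library was left out, and 1 to 10 in the difference of the nuo-6 effects, which had 9 with the replicate block. In nuo-6 against wild-type worms the count of 0 became 2 with library size alone, 2 with the compared groups alone, 2 by edgeR, 3 by DESeq2, 1 without replicates 2 and 3 of nuo-6 (added after their values were seen), and 0 to 3 with 1 library left out. In atfs-1(et15) against wild-type worms the count of 5 became 10 with additive batch, 0 with the compared groups alone, 10 with the replicate block, 2 at an adjusted p under 0.01, and 1 to 10 with 1 library left out. Against atfs-1(et17) worms the count of 5 became 2 without a filter, 0 with the compared groups alone, 10 with the replicate block, 1 by edgeR, 2 by DESeq2, 0 at an adjusted p under 0.01, and 0 to 10 with 1 library left out. With the compared groups alone, 5 genes were called for atfs-1(gk3094) of batch 1 and 5 for nuo-6;atfs-1 against atfs-1(gk3094). The percentages of all genes called that are given above belong to the main fit, and no such share is given for these counts. Between wild-type worms of batches 3 and 2 the count of 2 became 1 with library size alone, 1 without a filter, 1 with additive batch, 4 with the compared groups alone, 0 with the replicate block, 1 by edgeR, 4 by DESeq2, 0 at an adjusted p under 0.01, and 0 to 5 with 1 library left out. The causes were not tested. Additive batch gives no value for the deletion effect of batch 3 against batch 1. Apart from the paired batch 3 groups, where the block also called 0, the shared labels are only numbers.

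With library size as the only scaling, calls over all genes in nuo-6 worms went from 3094 higher and 2484 lower to 2526 and 3166, and in atfs-1(et15) worms from 2337 and 2265 to 2595 and 1246. The nuo-6;hif-1 group held 2 libraries, and every library had 21466920 reads or more. Whether replicates or depth limit the precision was not tested.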
